A study of Mus musculus with 2 samples.

Results

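The Bcl2 family was followed through 10 genes in tumour endothelial cells (ECs): the effectors Bax and Bak1, the BH3-only genes Bad, Bid, Bcl2l11 (BIM), Bbc3 (PUMA) and Pmaip1 (NOXA), and the anti-apoptotic genes Bcl2, Bcl2l1 (BCL-XL) and Mcl1. They were chosen by name for their place in the mitochondrial pathway of apoptosis, and all 10 were among the 17139 genes listed in both expression tables. The cells were live CD31+ CD45- ECs sorted from subcutaneous tumours of Lewis lung carcinoma (LLC), a mouse lung carcinoma line, in adult mice of the C57BL/6 background. The first tumour had been injected with 70 µl of PBS and the other with 14 µg of cGAMP, the cyclic dinucleotide that activates the innate immune sensor STING, in the same volume, and ECs were taken 24 h later. Each group was a single mouse and a single droplet-based single-cell RNA-seq library, so that mouse, library and treatment cannot be told apart and no difference between the groups has a test or a p-value. Cells that had already died or left the vessel were not in the sort.

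The members decide whether the outer membrane of the mitochondrion is opened. BAX and BAK1 form the pores, the anti-apoptotic proteins hold them in check, and the BH3-only proteins, made in response to damage, growth factor loss or stress, bind the anti-apoptotic proteins or activate the effectors. Much of this control acts on the proteins, through their turnover, phosphorylation and place in the cell, so that mRNA levels give only part of the balance.

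The PBS library held 2517 ECs and 92081146 unique molecular identifiers (UMIs), each standing for 1 captured mRNA molecule, with a median of 29780 per cell. The cGAMP library held 1340 ECs and 63366746 UMIs, with a median of 41177.5 per cell. The median share of mitochondrial UMIs was 4.49% in the former and 2.87% in the latter, and 1 cell barcode occurred in both libraries. The 6 endothelial markers summed to 3221 counts per 1000000 UMIs (CPM) in PBS and 3263 CPM in cGAMP, but they did not move alike. Emcn alone was higher in cGAMP, at 575 CPM in PBS and 952 CPM in cGAMP. The others were lower: Pecam1 (944 and 824 CPM), Cdh5 (1146 and 1008 CPM), Kdr (309 and 289 CPM), Tie1 (183 and 144 CPM) and Tek (63.8 and 44.6 CPM). The 8 listed leucocyte markers summed to 14.8 and 24.8 CPM, with Cd3d at 0 in a library, and the 3 neutrophil markers to 0.608 and 16.9 CPM, with Retnlg at 0 in a library. The 5 fibroblast and pericyte markers summed to 7.98 and 3.63 CPM and the 3 tumour epithelial markers to 2.09 and 0.395 CPM, with Pdgfra and Epcam each at 0 in a library. The 3 lymphatic markers summed to 12.4 and 44.9 CPM, most of it from Lyve1 (10.2 and 43.6 CPM). Prox1 went the other way (2.01 and 0.994 CPM), and Pdpn was at 0.163 and 0.363 CPM. The 2 erythroid markers summed to 84.2 and 57.7 CPM. In the clustering described below they were at 221 and 0.435 CPM in state 3, 147 and 0.745 CPM in state 5 and 4.19 and 322 CPM in state 4. The part of these cells, of depth and of the mitochondrial share in the differences below was mostly not tested. The exceptions are values at equal depth and values without the cells of high mitochondrial share. Values without any EC that held a leucocyte UMI are no such test, since that UMI may be free RNA in an EC.

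On GRCm38, the mm10 build to which the reads were aligned, GENCODE places Bax at chr7:45461697-45466898, Bak1 at chr17:27019810-27029009, Bcl2 at chr1:106538178-106714274, Bid at chr6:120891930-120916853 and Bcl2l1 at chr2:152780668-152831728, all on the minus strand. Bcl2l11 lies at chr2:128126038-128162547, Mcl1 at chr3:95658788-95663176, Bbc3 at chr7:16308393-16318205 and Bad at chr19:6941861-6951899, all on the plus strand, and the position of Pmaip1 is not given here. All are protein coding. Bid overlaps Bcl2l13 and Bcl2 overlaps the antisense RNA D630008O14Rik on the opposite strand, Bak1 overlaps Ggnbp1 and Bad overlaps Gpr137 likewise, and Bax overlaps the gene model Gm45808 on its own strand. Bid also overlaps the pseudogene Gm17812 on the opposite strand and Gm44260 on its own. Bcl2 also overlaps Mir3473f and Gm37053 on its own strand. Whether counting used the strand is not given in the sources used here, so the levels of these 5 members may hold reads of their neighbours.

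The promoters of 3 members are shown because their genes carry the contrasts that follow. Bcl2l11 and Bcl2 were the members with the largest decreases after cGAMP and shared their highest endothelial state, whereas Bax was higher after cGAMP. The sequences are the 250 bases before the RefSeq start on GRCm38, written 5′ to 3′ on the strand of the gene, with motif matches in capitals: for Bcl2l11 chr2:128125788-128126037 (plus strand), for Bcl2 chr1:106714291-106714540 (minus strand) and for Bax chr7:45466899-45467148 (minus strand).
Bcl2l11: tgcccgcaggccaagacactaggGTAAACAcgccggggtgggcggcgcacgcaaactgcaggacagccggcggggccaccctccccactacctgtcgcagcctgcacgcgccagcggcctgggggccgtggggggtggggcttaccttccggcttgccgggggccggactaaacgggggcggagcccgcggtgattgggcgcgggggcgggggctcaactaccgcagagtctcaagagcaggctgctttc
Bcl2: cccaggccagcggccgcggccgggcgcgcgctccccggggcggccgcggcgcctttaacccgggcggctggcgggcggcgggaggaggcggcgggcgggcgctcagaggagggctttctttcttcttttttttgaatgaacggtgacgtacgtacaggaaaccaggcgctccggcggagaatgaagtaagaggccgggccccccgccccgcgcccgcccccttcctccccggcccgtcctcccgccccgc
Bax: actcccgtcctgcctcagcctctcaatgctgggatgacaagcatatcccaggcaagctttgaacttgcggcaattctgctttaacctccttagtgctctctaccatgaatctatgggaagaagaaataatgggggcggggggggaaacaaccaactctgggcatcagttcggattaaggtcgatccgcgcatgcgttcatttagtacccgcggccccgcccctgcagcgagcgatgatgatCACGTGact
The capitals in Bcl2l11 mark a match, on the minus strand, to TGTTTAC, the core bound by FOXO factors, which starts 227 bases before the start of transcription. The capitals in Bax mark an E-box, CACGTG, 9 bases before the start. Of the 15 windows of this kind held for 9 members, several of them for alternative starts of 1 gene, 2 had TGTTTAC (Bcl2l11 and 1 start of Bbc3), 2 had CACGTG (Bax and 1 start of Bbc3) and 2 had the NF-kB pattern, GGGA and CC with any 4 bases between them (Bak1 and 1 start of Bbc3). On both strands, these letters were in 3.17%, 6.02% and 17.6% of the 32851 promoter windows of all genes. The interferon patterns ISRE, GAAA and GAAA with any 2 bases between them, and GAS, TTC and GAA with any 3 bases between them, and a p53 site of 2 half-sites were in none of the 15 windows, and in 2.98%, 7.02% and 0.0639% of all windows. The Bcl2 window had none of these motifs but 36 CpG dinucleotides and a GC content of 74.8%, against a median of 52.4% over all windows.

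A ratio of at least 1.2-fold between the libraries was taken as a difference worth counting, over all genes that reached 5 CPM in at least 1 library. Bax and Bcl2l1 were higher after cGAMP by this measure, Bcl2l11, Bbc3 and Bcl2 were lower, and Bak1, Bad, Bid and Mcl1 lay within 1.2-fold. The differences therefore did not divide by role, since an effector and an anti-apoptotic gene were both higher, and 2 BH3-only genes and an anti-apoptotic gene were lower. Of all 9509 genes with at least 5 CPM, 15.2% were at least 1.2-fold higher and 27.3% at least 1.2-fold lower, which stand beside 2 and 3 of the 9 members. Pmaip1, at under 5 CPM in both libraries, was not counted. At 1.5-fold no member was higher, and 2 members, Bcl2l11 and Bcl2, were lower, against 7.41% of all genes. Medians of the log2 ratio, with cGAMP in the numerator, were 0.11 for the 9 members and -0.08 for all genes, and all intervals below are 95% intervals that cover counting error only, not the spread between mice.

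**Figure D1:**
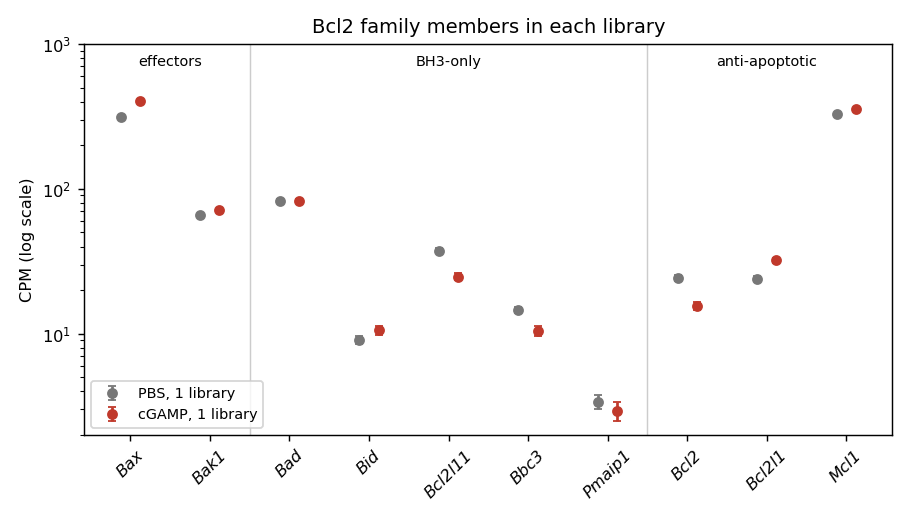
CPM (log axis) of the 10 members in the PBS (grey) and the cGAMP (red) library, grouped by role, with exact Poisson 95% intervals that are often smaller than the points. Bax and Mcl1 lie above all other members in both libraries, and Bcl2l11, Bbc3 and Bcl2 lie lower in the cGAMP library.

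Bax, whose product opens the mitochondrial outer membrane, had 316 CPM in PBS (exact Poisson 95% interval 312 to 319) and 407 CPM in cGAMP (402 to 412). The intervals did not overlap, and the log2 ratio was 0.37 (0.34 to 0.39), or 1.29-fold. Bak1, the other effector, was at 65.7 CPM (64.0 to 67.3) and 71.0 CPM (68.9 to 73.1). Its intervals were also apart, but the log2 ratio was only 0.11 (0.06 to 0.17). These are 3′ UMI counts, 1 per captured molecule and not divided by gene length, and capture can differ between genes, so that levels of different members are compared here only as captured molecules. On that scale an EC held a mean of 11.6 Bax and 2.40 Bak1 UMIs in PBS, and 19.2 and 3.36 in cGAMP. The cGAMP library had more UMIs per cell.

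Among the BH3-only members, Bcl2l11 differed most. Its product, BIM, activates BAX directly and serves in the death of many cells that lose survival signals. It had 37.5 CPM in PBS (36.2 to 38.8) and 24.8 CPM in cGAMP (23.6 to 26.0), a log2 ratio of -0.60 (-0.68 to -0.51). Bbc3, the p53-induced PUMA, was at 14.6 CPM (13.8 to 15.4) and 10.5 CPM (9.70 to 11.3), a log2 ratio of -0.48 (-0.61 to -0.34). Both were lower in the cGAMP library with intervals well apart.

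Bid, which links caspase 8 downstream of death receptors to the mitochondrion, went the other way but by less. It had 9.06 CPM in PBS (8.45 to 9.69) and 10.5 CPM in cGAMP (9.76 to 11.4), a log2 ratio of 0.22 (0.07 to 0.37). Bad, a BH3-only gene whose product is silenced by AKT phosphorylation, was level at 82.8 CPM (80.9 to 84.6) and 82.5 CPM (80.3 to 84.8). Its log2 ratio of -0.0048 had an interval from -0.06 to 0.05, so that a difference in its mRNA beyond that was not seen between these libraries. Pmaip1, whose product NOXA binds MCL1, was the scarcest member at 3.40 CPM (3.03 to 3.797) and 2.92 CPM (2.51 to 3.37). The interval of its log2 ratio of -0.22 ran from -0.49 to 0.05 and held 0, so that no difference was detectable at this depth.

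The anti-apoptotic members divided. Bcl2, at 24.3 CPM in PBS (23.3 to 25.3) and 15.5 CPM in cGAMP (14.6 to 16.5), had the lowest ratio of all members, -0.64 on the log2 scale (-0.75 to -0.53). Bcl2l1 started at almost the same level, 24.01 CPM (23.0 to 25.0), and had 32.1 CPM in cGAMP (30.7 to 33.5), a log2 ratio of 0.42 (0.33 to 0.51). The UMIs of Bcl2l1 were therefore 0.989 times those of Bcl2 in PBS and 2.07 times in cGAMP. Mcl1, a short-lived protein made from an abundant mRNA, had 327 CPM (324 to 331) and 357 CPM (352 to 362), a log2 ratio of 0.12 (0.10 to 0.15).

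**Figure D2:**
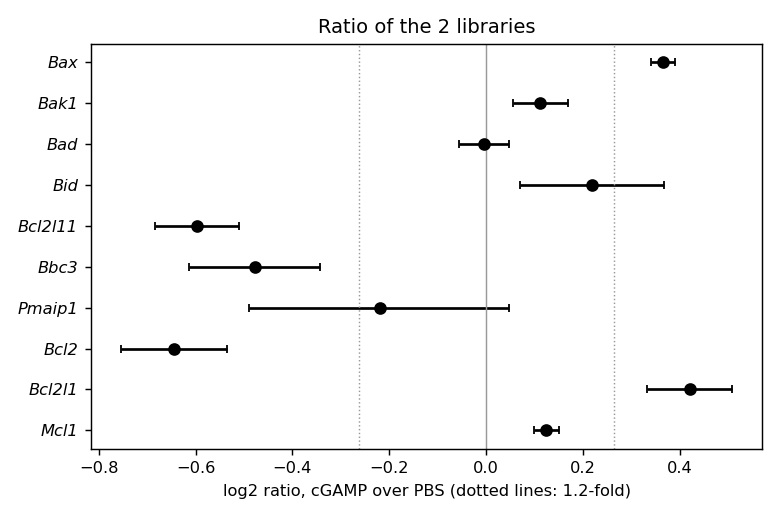
Log2 ratio of cGAMP over PBS for each member, with exact conditional 95% counting intervals. Bax and Bcl2l1 lie to the right of the dotted line of 1.2-fold and Bcl2l11, Bbc3 and Bcl2 to the left.

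Some of these values moved with the cells counted. The share of tip-like ECs, defined below, was 19.1% in the PBS and 14.2% in the cGAMP library. With the proportions of the states held at their average the log2 ratio was -0.43 for Bcl2l11, -0.53 for Bcl2, 0.39 for Bax and 0.37 for Bcl2l1. With those proportions Bid, at 0.40, passed 1.2-fold, and Mcl1 was at 0.06. This setting also weighted the states by cells and not by UMIs, so that these moves are not of the proportions alone. The mean of per-cell CPM, with the proportions left as they were, gave -0.53 for Bcl2l11, -0.48 for Bcl2, 0.36 for Bax, 0.39 for Bcl2l1 and 0.34 for Bid. In ECs with at most 5% mitochondrial UMIs, 1662 in PBS and 1248 in cGAMP, the ratio was -0.69 for Bcl2l11, -0.67 for Bcl2, 0.35 for Bax and 0.43 for Bcl2l1. Leaving out each EC with a UMI of any leucocyte marker kept 1655 from the 2517 of PBS but only 518 from the 1340 of cGAMP. The libraries were thus cut unequally, and the part of leucocytes cannot be read from the result. In the ECs kept, the ratio was -0.70, -0.63, 0.31 and 0.57 in the same order. When each cell was thinned to 5000 UMIs, it was -0.69, -0.39, 0.42 and 0.51.

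The ECs were grouped into 8 states by clustering that used none of the members, none of the apoptosis genes and no gene that differed at least 2-fold between the libraries. State 1 was stalk-like (venous), led by Ubd, Apoe and Selp, with 398 PBS-treated and 346 cGAMP-treated ECs. State 2 was arterial-like, led by Gja4 and Gja5 (458 and 230 ECs), and state 3 proliferative-like, led by Ube2c and Cenpf (494 and 184 ECs). State 5 was tip-like, led by Gal and Chga with Cxcr4 (384 and 132 ECs), with 5 of the 12 tip-like markers raised at least 2-fold. State 7 was also tip-like (98 and 58 ECs), with 9 of the 12 raised and Pgf, Adm and Ankrd1 among its 10 leading genes. The neutrophil gene S100a9 was the first of these 10 and S100a8 was also among them, as many as the tip-like markers there, Pgf and Adm. Neutrophil markers summed to 270.0 CPM in the cGAMP-treated and 0.878 CPM in the PBS-treated ECs of state 7, and their part in its values was not tested. The other 3 states kept no name under the marker rule: state 4, with Igfbp3 and Esm1 among its leading genes beside haemoglobin genes (458 and 202 ECs), state 6, led by the replication genes Ung, Hells and Mcm5 (182 and 141 ECs), and state 8, led by Igfbp5 and Ctsh (45 and 47 ECs). State 8 nevertheless had all 10 stalk-like (venous) markers raised at least 2-fold, against 4 in state 1. It stayed unnamed because 0 of them were among its 10 leading genes, so venous ECs need not lie in state 1 alone.

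**Figure D3:**
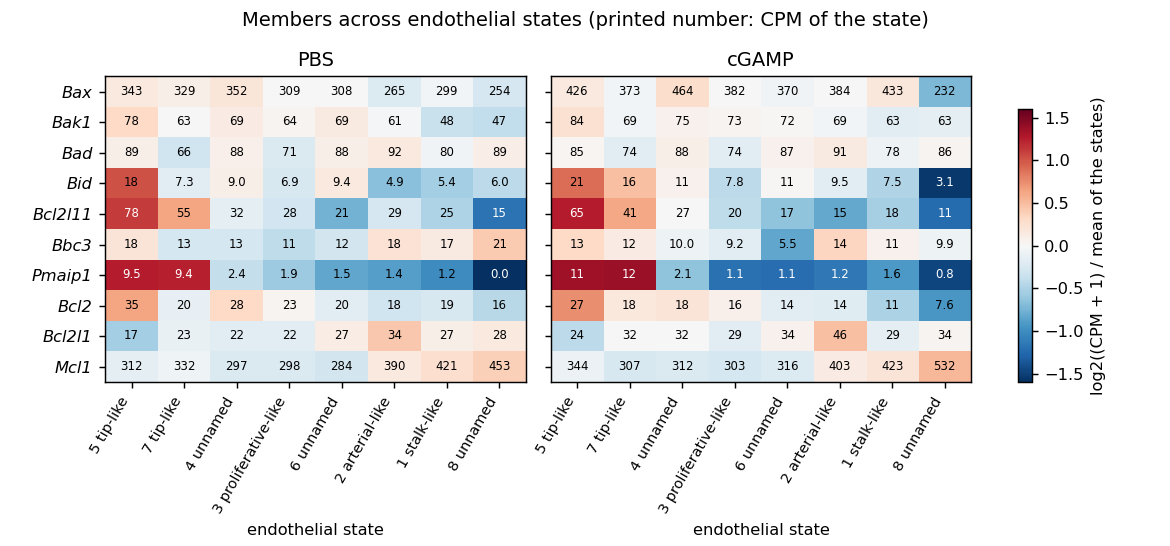
Heatmap of the 10 members (rows) in the 8 endothelial states (columns) of each library, with the CPM of the state printed in each field and the colour giving the log2 of CPM + 1 over the mean of the states. Bid, Bcl2l11, Pmaip1 and Bcl2 are highest in tip-like state 5 or, for Pmaip1 after cGAMP, state 7, whereas Bcl2l1 is highest in arterial-like state 2 and Mcl1 in state 8, in both libraries.

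Of the 9 members with at least 5 CPM, 6, namely Bid, Bcl2l11, Bbc3, Bcl2, Bcl2l1 and Mcl1, differed at least 1.5-fold between their highest and lowest state in both libraries, but so did 68.2% of all genes. In state 5, members of both kinds were higher. Bid, Bcl2l11 and Bcl2 were each at least 1.5-fold higher there than in all other ECs of the same library, in both libraries, as was Pmaip1, which lay below 5 CPM in both libraries as a whole, while the BH3-only Bad (log2 0.13 and 0.05 over all other ECs) and Bbc3 (0.38 and 0.40) were not. That is 3 of the 9 members with at least 5 CPM, where 4.55% of all genes were this much higher in state 5. With 1 mouse per library no test of a state was possible, and cells of 1 library share their source.

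Bcl2l11 was at 77.6 CPM (73.4 to 82.0) in state 5 and at 55.0 CPM (47.4 to 63.5) in state 7 of the PBS library. The other states held 31.8 CPM (state 4), 29.0 CPM (state 2), 28.4 CPM (state 3), 24.7 CPM (state 1), 20.6 CPM (state 6) and 15.1 CPM (state 8). In this order states 5, 7 and 4 were apart from one another, and from state 4 down each interval overlapped that of the next. In the cGAMP library state 5 held 64.6 CPM (58.7 to 71.0) and state 7 held 41.3 CPM (33.8 to 49.9), and the others 26.6 CPM (state 4), 19.8 CPM (state 3), 18.03 CPM (state 1), 16.7 CPM (state 6), 14.6 CPM (state 2) and 10.7 CPM (state 8). The log2 of its level in state 5 over all other ECs was 1.43 in PBS and 1.69 in cGAMP. Bcl2l11 was lower after cGAMP in each of the 8 states, with an interval below 0 in 6 of them. Its log2 ratio was lowest in arterial-like state 2, at -0.99 (-1.30 to -0.69), and only -0.26 in each of states 4 and 5.

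Pmaip1 followed the same tip-like states. In PBS it was at 9.46 CPM (8.03 to 11.1) in state 5 and 9.36 CPM (6.40 to 13.2) in state 7, and between 0 and 2.36 CPM in the others. In cGAMP it was at 11.5 CPM (9.05 to 14.3) in state 5 and 11.7 CPM (7.89 to 16.7) in state 7, and between 0.765 and 2.14 CPM in the others. The 2 tip-like states held 19.1% of PBS-treated ECs but 49.5% of the 208 ECs with a Pmaip1 UMI, and 14.2% of cGAMP-treated ECs but 48.7% of the 115 with one. Within the tip-like states a UMI was found in 21.4% of cells in PBS (exact Clopper-Pearson 95% interval 17.8% to 25.3%) and 29.5% in cGAMP (23.1% to 36.5%), against 5.16% and 5.13% of all other ECs. Median depth was 33227 UMIs per tip-like and 28953 per other EC in PBS, and 41917.5 and 41089.5 in cGAMP. Lyz2 is a myeloid gene that ECs should lack. It was found in 16.4% of tip-like and 12.8% of other ECs in PBS and in 38.9% and 38.3% in cGAMP. The shares of Lyz2 do not measure free RNA of Pmaip1, and the part of free RNA in the shares of Pmaip1 was not tested.

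**Figure D4:**
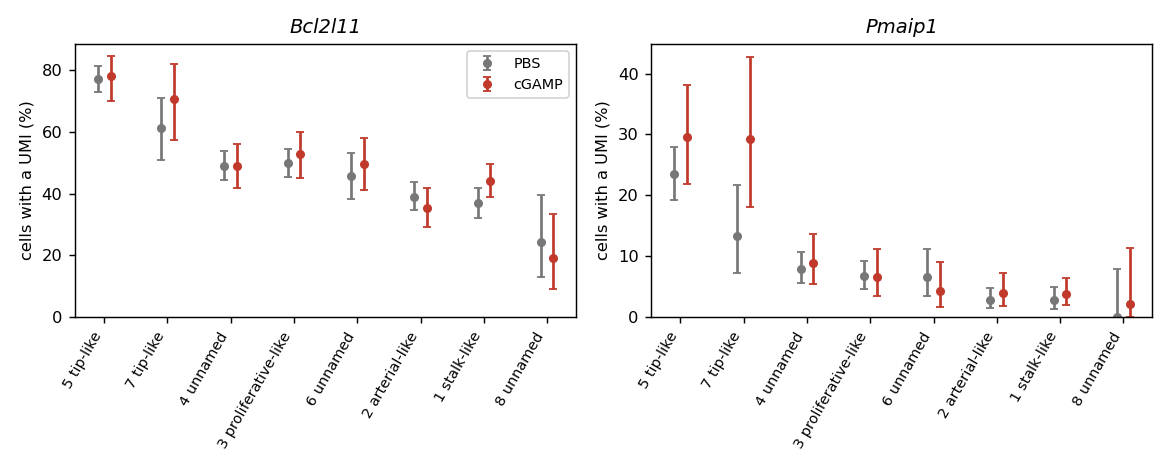
Percentage of ECs with at least 1 UMI of Bcl2l11 (left) and Pmaip1 (right) in each state, in PBS (grey) and cGAMP (red), with exact Clopper-Pearson 95% intervals. Tip-like states 5 and 7 lie highest for both genes in both libraries, at 77.3% and 78.0% for Bcl2l11 in state 5.

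Bcl2l11 was found in 74.1% of tip-like and 43.8% of other ECs in PBS and in 75.8% and 44.3% in cGAMP. These shares hardly differed between the libraries although the CPM was lower after cGAMP. The median of UMIs per cell was 29780 in PBS and 41177.5 in cGAMP, and the reason for this difference was not tested. After thinning each cell to 5000 UMIs, which lost 70 cells of the PBS and 13 of the cGAMP library, Bcl2l11 was found in 15.2% (13.8% to 16.7%) of ECs in PBS and 9.80% (8.25% to 11.5%) in cGAMP. Bcl2l1 was found in 10.6% (9.39% to 11.9%) and 14.8% (12.9% to 16.8%), and Bax in 72.7% (70.9% to 74.5%) and 81.4% (79.2% to 83.4%). The thinned shares thus had the direction of the CPM for these 3 members. Unthinned, Bcl2l1 was found in 48.3% and 65.0% of ECs and Bax in 97.0% and 98.7%.

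Bid was at 18.0 CPM (16.0 to 20.2) in state 5 of PBS and 21.0 CPM (17.7 to 24.8) in state 5 of cGAMP. No other state was above 9.44 CPM in PBS, and state 7, at 15.6 CPM (11.1 to 21.2), was next in cGAMP with an overlapping interval. Bid was lowest in arterial-like state 2 in PBS (4.91 CPM) and higher there after cGAMP (9.49 CPM), a log2 ratio of 0.95 (0.45 to 1.46). In state 7 it was at 7.32 CPM and 15.6 CPM, a log2 ratio of 1.09 (0.33 to 1.87). These were the 2 states in which the interval of Bid lay above 0.

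Bcl2, although anti-apoptotic, was highest in state 5, as were Bid and Bcl2l11. It had 34.9 CPM (32.1 to 37.9) in state 5 of PBS and 26.8 CPM (23.0 to 31.0) in state 5 of cGAMP. Its lowest levels were 16.1 and 7.65 CPM in state 8. In tip-like state 7 Bcl2 was at 20.2 CPM in PBS and 17.5 CPM in cGAMP. Its log2 over all other ECs there was -0.28 (-0.64 to 0.07) in PBS and 0.18 (-0.28 to 0.61) in cGAMP. The same values were 0.58 and 0.78 for Bcl2l11 and -0.32 and 0.59 for Bid. Over the 16 points of 8 states in 2 libraries, centred within each library, Pearson's r with Bcl2 was 0.83 for Bcl2l11 and 0.90 for Bid, and r between Bcl2l11 and Pmaip1 was 0.94. The points share 2 libraries and these coefficients are descriptions. Bcl2 was lower after cGAMP in each of the 8 states, with an interval below 0 in 6.

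Bcl2l1 had the opposite order. It was highest in arterial-like state 2, at 34.4 CPM (31.2 to 37.9) in PBS and 45.9 CPM (41.4 to 50.7) in cGAMP, and lowest in state 5, at 17.0 CPM (15.0 to 19.1) and 24.1 CPM (20.6 to 28.1). It was higher after cGAMP in each of the 8 states, with an interval above 0 in 6, and r with Bcl2l11 over the states was -0.66. The UMIs of Bcl2l11 were 4.58 times those of Bcl2l1 in state 5 of PBS and 0.843 times in state 2, and 2.68 and 0.318 times after cGAMP. The log2 of this ratio was lower after cGAMP in all 8 states, the differences lying between -0.58 in state 1 and -1.41 in state 2, and its interval held 0 in state 8 alone, at -0.75.

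Mcl1 was highest in state 8, with 453 CPM (412 to 497) in PBS and 532 CPM (493 to 573) in cGAMP, followed in both libraries by stalk-like state 1 (421 and 423 CPM) and arterial-like state 2 (390 and 403 CPM). The other 5 states lay between 284 and 332 CPM in PBS and between 303 and 344 CPM in cGAMP. Immediate early genes, which dissociation of tissue is known to raise, were also highest in these 3 states: the 13 genes summed to 11479 CPM in state 8, 9073 CPM in state 2 and 8599 CPM in state 1 of PBS, and to between 4096 and 5586 CPM elsewhere. Their part in the levels of Mcl1 was not tested.

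Bax had 352 CPM (343 to 361) in state 4 and 254 CPM (224 to 287) in state 8 as its extremes in PBS. After cGAMP state 4 held 464 CPM (451 to 478) and state 8 held 232 CPM (206 to 259). Its ratio was above 0, with its interval, in 7 of the 8 states, by 0.53 in state 1 and 0.54 in state 2, and in state 8 it was -0.13 (-0.38 to 0.11). Bak1 was highest in state 5 in both libraries (78.2 and 84.5 CPM), with intervals of neighbouring states overlapping at 6 of 7 steps in PBS and at all 7 in cGAMP. Bad varied little, from 66.4 to 92.5 CPM among the states of PBS and from 73.6 to 91.5 CPM among those of cGAMP, and no state had an interval of its ratio apart from 0. Bbc3 was lower after cGAMP in each of the 8 states, with an interval below 0 in 5, the lowest ratio being -1.18 in state 6.

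The order of the states was largely shared by both libraries. Over the 8 states, Pearson's r between the log2 levels in PBS and cGAMP, with 5 CPM added, was 0.98 for Pmaip1, 0.97 for Bcl2l11, 0.96 for Bad, 0.93 for both Mcl1 and Bak1, 0.90 for Bcl2, 0.89 for Bcl2l1, 0.74 for Bax, 0.73 for Bid and 0.51 for Bbc3. The libraries were clustered together, and r is given as a description.

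The balance was taken as the summed UMIs of the 7 pro-apoptotic members over those of the 3 anti-apoptotic members. It was 1.41 in PBS (48693 over 34593 UMIs) and 1.51 in cGAMP (38590 over 25632 UMIs), a difference of 0.10 on the log2 scale (0.07 to 0.13). The difference was 0.19 with the state proportions held at their average and 0.016 in ECs without a UMI of a leucocyte marker. The latter filter removed a larger share of the cGAMP library and does not test the part of leucocytes. Bax and Mcl1 made up 34.9% and 36.2% of all member UMIs in PBS and 40.1% and 35.2% in cGAMP, and so set most of this sum. The effectors over the anti-apoptotic members went from 1.02 to 1.18, a log2 difference of 0.22 (0.19 to 0.25), whereas the BH3-only over the anti-apoptotic members went from 0.392 to 0.324, a log2 difference of -0.27 (-0.32 to -0.23). Without Mcl1 the log2 difference of the whole balance was 0.22. When every member counted alike, by the mean log2 ratio of the pro-apoptotic less that of the anti-apoptotic members, the direction turned, to -0.05.

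Across states the balance was highest in tip-like state 5 in PBS, at 1.74, and in state 4 after cGAMP, at 1.87. It was 1.02 in stalk-like state 1 and 1.07 in arterial-like state 2 of PBS, and 1.32 and 1.26 after cGAMP. State 8 was the only one in which the anti-apoptotic UMIs outnumbered the others, at 0.871 in PBS and 0.707 in cGAMP. The log2 difference was largest in state 1, at 0.38 (0.30 to 0.45), close to 0 in state 5, at 0.04 (-0.04 to 0.12), and in state 6, at 0.01 (-0.09 to 0.10), and below 0 in state 8, at -0.30 (-0.55 to -0.06). The ratio of BH3-only to anti-apoptotic UMIs was highest in state 5 in both libraries, 0.583 in PBS and 0.495 in cGAMP, and was lower after cGAMP with an interval below 0 in 7 of the 8 states, state 7 being the exception at 0.10 (-0.12 to 0.33).

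**Figure D5:**
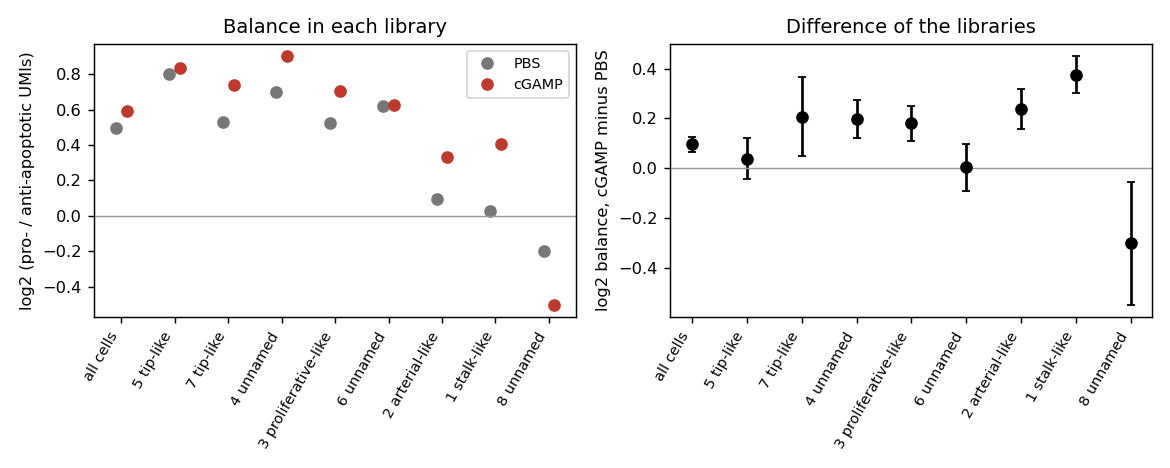
Left, log2 of the summed pro-apoptotic over anti-apoptotic UMIs in all ECs and in each state of the PBS (grey) and cGAMP (red) library. Right, the difference of the libraries with 95% counting intervals, above 0 in all ECs and in states 1, 2, 3, 4 and 7, around 0 in states 5 and 6 and below 0 in state 8.

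In single ECs, Bax UMIs outnumbered Mcl1 UMIs in 41.4% of PBS-treated (39.4% to 43.3%) and 52.0% of cGAMP-treated ECs (49.3% to 54.7%). With every cell thinned to 5000 UMIs the shares were 35.8% (33.9% to 37.7%) and 43.8% (41.1% to 46.5%), so that the higher share after cGAMP held at equal depth. Thinned, the share was highest in state 4, 42.9% in PBS and 57.3% in cGAMP, and lowest in state 8, 15.9% and 19.1%. In state 5 it was 42.4% and 41.5%, with overlapping intervals.

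Genes around the members were read as lists. Beside every count of a list stand the 15.2% of all genes that were at least 1.2-fold higher and the 27.3% that were lower. Of 15 other BCL-2 family genes, 12 were listed and 8 had at least 5 CPM. None of the 8 was at least 1.2-fold higher after cGAMP and 5 were lower: Bmf, a BH3-only gene (7.83 and 3.16 CPM, log2 ratio -1.31), Bnip3 and Bnip3l, which serve in mitophagy (-0.55 and -0.45), the BAX-like Bok (-0.35) and Bcl2l13 (-0.32). Their median log2 ratio was -0.34, against -0.08 over all genes. Among the 17 genes of the apoptosome, caspases and their inhibitors, 4 were higher and 5 lower. They ran from Cycs, cytochrome c itself (222 and 330 CPM, 0.57), to Birc5 (-0.81), one of the inhibitors and also one of the proliferative markers. The 11 outer membrane partners held 1 higher gene, the VDAC channel gene Vdac3 (0.27), and 1 lower gene, Mfn2 (-0.32).

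Of 17 regulators of the members with at least 5 CPM, 7 were at least 1.2-fold lower and 2 higher, with a median of -0.13, where 27.3% and 15.2% of all genes were lower and higher. Foxo1, a transcription factor known to induce Bcl2l11, had the lowest ratio (111 and 68.3 CPM, -0.70), and Myc the highest (25.4 and 42.2 CPM, 0.73). Of 13 p53 target genes outside the members 4 were higher and 2 lower, between Cdkn1a at 0.69 and Trp53inp1 at -1.004, with a median of 0.09. All 14 interferon-stimulated genes with at least 5 CPM were higher, with a median of 1.37, from Ifit2 (0.41) to Irf7 (2.98), and 8 of 13 immediate early genes were higher, with a median of 0.36 and Ier3 highest at 0.87 and Fosb lowest at -0.16. No member's ratio reached the median of the interferon-stimulated genes.

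The genes whose pattern over the 16 points was most like that of a member, among genes with at least 20 CPM, were named by Pearson's r for the 7 members that reach that level. They were Ifnar1, the type I interferon receptor gene (r = 0.97), Ppp1r13b (0.95) and Pdk1 (0.94) for Bcl2l11, and Abhd17b (0.92), C1galt1 (0.92) and Gnb4 (0.92) for Bcl2. For Bcl2l1 they were Podxl (0.90), Sorbs2 (0.89) and Pgrmc1 (0.86), and for Mcl1 Tgoln1 (0.97), Junb (0.96) and Ets1 (0.95). Bax was most like Nr5a2 (0.89), Fbxo28 (0.89) and Kcne3 (0.88), Bak1 most like Cmtm7 (0.94), Trappc3 (0.92) and Ndufa9 (0.91), and Bad most like As3mt (0.86), Txndc15 (0.85) and Stx18 (0.84).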

How the data were processed

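Reads were mapped by the authors to mm10 (Cell Ranger 3.0.0). They discarded cells with few genes or a high mitochondrial share (the highest share kept was 9.98%) and normalised with Seurat 3.1.1, per the methods and the submitters' processing notes. The droplet kit is version 2 in the labels and version 3 in the methods, and 1 legend gives another sampling time than the 24 h of the methods. The deposited values are on the natural log scale, ln(1 + x) where x is a gene's count scaled to 10000 UMIs per cell, and the authors' cell filters could not be repeated. The logarithm was undone, and 100% of values came within 0.01 of a whole UMI count.

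UMIs were summed per library, or per state and library, into CPM with exact Poisson 95% intervals (Python 3.11.15, scipy 1.17.1, figures with matplotlib 3.10.9). Log2 ratios have exact conditional intervals, balances normal-approximation intervals on the log scale and shares exact Clopper-Pearson intervals, all for counting error only. With 1 library per group no test was made. States were clustered in Seurat 5.3.0 (R 4.3.3) with integration, 30 principal components, resolution 0.5 and 2336 of 2500 variable genes. A state was named from at least 3 markers raised at least 2-fold (5 CPM added). Their class also had to hold at least 1 of the 10 leading genes, and no fewer than any other class. Ties were allowed, and in state 7 the neutrophil markers tied with the tip-like markers. The study's own state names were not used here, and rebuilt states need not match them. Doublets were not called. Named genes were all 10 members, the 3 genes most like each member with at least 20 CPM, and list genes as counts with the extremes named. Members and lists were chosen with earlier results of these data known. Other scalings, cell filters, thinning to 5000 UMIs and clusterings were tried. The calculations were tested on simulated data. Sequences are from RefSeq on GRCm38.p6.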

Additional observations from a re-analysis of the deposited data

Results flagged for a closer look

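The balance of pro-apoptotic over anti-apoptotic UMIs was lower after cGAMP in state 8, led by Igfbp5 and Ctsh, by -0.30 on the log2 scale (-0.55 to -0.06), while its interval lay above 0 in 5 of the other states. It was noted for this opposite direction, which was not tested, as each state had 1 library per group. The state held 45 PBS-treated and 47 cGAMP-treated ECs, with 431 pro-apoptotic and 495 anti-apoptotic UMIs in PBS and 530 and 750 in cGAMP. Bax was lower there, 254 and 232 CPM with overlapping intervals, and Mcl1 higher, 453 and 532 CPM. Alternatives chosen after seeing the data gave -0.37 as the mean of per-cell CPM, -0.25 in thinned cells, -0.32 with at most 5% mitochondrial UMIs and -0.43 in ECs without a leucocyte UMI. Clusters holding most of these ECs gave -0.27 at the higher resolution, -0.36 with all variable genes and -0.13 without integration, but 0.34 at resolution 0.3, where the cluster that held all of them had 845 ECs.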

How the results depend on the processing

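The call of Bax and Bcl2l1 as higher and of Bcl2l11, Bbc3 and Bcl2 as lower was kept under every scaling, cell filter and thinning tried. Bid joined the higher members under 5 of them, and Bbc3 dropped out at a minimum of 20 CPM. At 1.5-fold the count of higher members was 0. The log2 difference of the balance, 0.10, was 0.19 with state proportions held equal, 0.016 in ECs without a leucocyte UMI, 0.22 without Mcl1 and, reversed, -0.053 as a difference of mean log2 ratios. In the cluster at resolution 0.3 that took in state 8 among 845 ECs, the balance difference of that state was reversed, to 0.34. Of the 80 member log2 ratios under 8 alternatives, 56 stayed within their counting interval and 75 kept their sign, the others being of Bad and Pmaip1. The median-of-ratios scaling moved all ratios by 0.08. The number of members that differed 1.5-fold between states was between 5 and 8, against 6. The 56 values of Bcl2l11, Bid, Bcl2 and Pmaip1 in tip-like state 5 over other ECs kept their sign, from 0.56 to 3.44. Under other clusterings they were taken in the cluster with most ECs of state 5, which held 439 to 1226 ECs, against 516. At the higher resolution Bcl2l11 and Bid of PBS, and in thinned cells Bcl2l11 of PBS, were highest in another cluster. Pmaip1 of cGAMP, highest in another state in the main setting, was so too at the higher resolution and as the mean of per-cell CPM. In ECs with at most 5% mitochondrial UMIs, Pmaip1 was highest in another state in both libraries. State 7 was not followed in this way, and in PBS its values were -0.32 for Bid and -0.28 for Bcl2. Thinned levels of Pmaip1 rest on 33 and 22 ECs with a UMI. No paired analysis was possible because each group had 1 library. Intervals cover counting error and not the spread between mice, so no difference here can be given to treatment rather than mouse.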
